A study of Sus scrofa with 9 samples.

Results

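Circular RNAs (circRNAs) whose gene of origin is a chromatin regulator are described here in porcine metaphase II (MII) oocytes, pronuclear (PN) embryos and mature sperm. They were taken from the deposited circRNA table by the symbol of the host gene, with 27 name families of histone-modifying enzymes, chromatin remodellers, chromatin readers and DNA methylation enzymes. The rule found 99 of the 3071 listed circRNAs, which is 3.22%, from 47 of 1727 host genes, and it used no measured value. None of the 46 entries named as intronic circles (ciRNA) was among them.

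The libraries were made from rRNA-depleted total RNA of untreated cells, 3 per group and 9 in all. MII oocytes were matured in vitro and freed of cumulus cells, PN embryos came from in vitro fertilization of such oocytes, and the sperm was mature, purified and fresh, from adult boars. Oocyte and embryo RNA came from pooled cells, and nothing states that the 3 libraries of a group came from separate animals, so the p-values measure only the spread between libraries, which may be technical. The question of the study was which RNAs a sperm brings into the egg, and the design compares PN embryos with MII oocytes and sperm with each of them.

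A circRNA forms when the splicing machinery joins the end of an exon to the start of the same exon or of one upstream, which leaves a closed ring that lacks free ends and that exonucleases degrade slowly. Chromatin regulators write, remove or read chemical marks on histones, slide or exchange nucleosomes, or methylate DNA. Around fertilization these proteins matter because sperm chromatin, packed mostly with protamines, is rebuilt on histones in the egg, and because the parental genomes are reprogrammed before the embryo starts its own transcription. A circRNA count says nothing about the amount of the protein or of the linear mRNA of its host gene.

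The circRNA columns of sperm libraries 1 and 3 held identical values in all 3071 entries, of which 562 were above 0. They were counted as 1 sample, called sperm 1 in what follows, so that sperm has n = 2 for circRNAs. The summed circRNA counts were 22809 to 24217 in MII oocytes, 23056 to 26200 in PN embryos and 155731 to 167851 in sperm. A circRNA at 0 could therefore hold up to 0.0124% to 0.0132% of the circRNA counts of an oocyte library, 0.0115% to 0.0130% of an embryo library and 0.00179% to 0.00193% of a sperm library (floor of 3 counts). As a check of the labels, 39 circRNAs from 13 of 50 listed spermatogenic genes held 1.65% to 3.32% of the counts in sperm, 0.574% to 1.24% in oocytes and 0.526% to 1.15% in embryos. The 4 circRNAs from 4 of 26 listed oocyte genes were at 0 in both sperm samples, 2 of them were above 0 in oocytes and 3 in embryos. Of listed cumulus and granulosa genes, 2 of 14 had a circRNA, at 0.0333% or less in oocytes 0.0857% or less in embryos and 0.0122% or less in sperm, and 0 of 13 leukocyte genes had one. A marker gene without a listed circRNA says nothing of its mRNA, and the part of other cells in the results was not tested.

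Chromatin regulator circRNAs took a larger part of the circRNA pool in both sperm samples than in any oocyte or embryo library. They held 1.57%, 0.579% and 1.67% of the circRNA counts in MII oocytes 1 to 3, from 380, 139 and 382 counts. In PN embryos they held 1.44%, 1.33% and 1.38%, from 333, 348 and 338 counts. In sperm they held 3.11% and 2.12%, from 4841 and 3561 counts. The 95% exact binomial interval of the lower sperm value, 2.05% to 2.19%, lay above that of the highest oocyte value, 1.51% to 1.85%, although these intervals cover counting error only. The means were 1.27% ± 0.604 in MII oocytes (SD, n = 3), 1.38% ± 0.0582 in PN embryos (SD, n = 3) and 2.62% ± 0.698 in sperm (SD, n = 2). MII oocyte 2 stood below the other oocytes, so oocytes and embryos overlapped while sperm overlapped with neither. This separation rested on KDM5B: without its circRNAs the sperm samples had 2.10% and 1.62%, and sperm 2 lay under MII oocyte 3 at 1.66%. For comparison, 56 circRNAs from 29 other chromatin genes, chosen from a list of 188 that the symbol rule does not cover, held 1.47% to 2.07% in oocytes, 1.47% to 2.10% in embryos and 0.552% to 0.850% in sperm, the opposite order. No test was made of these summed shares, because each is a sum over a chosen list.

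**Figure D1:**
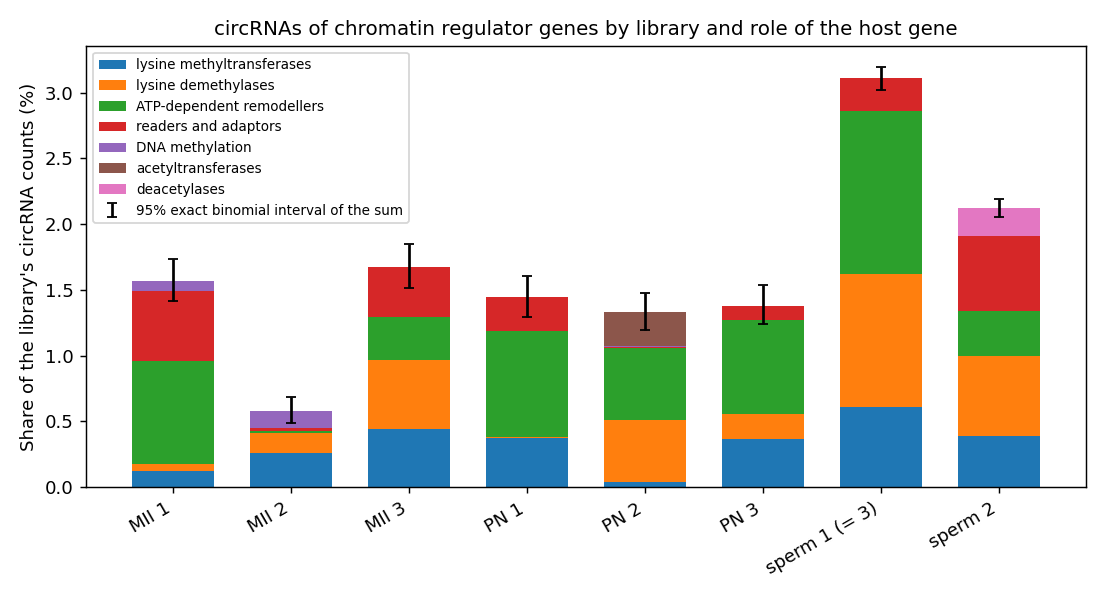
Share of the circRNA counts of each library (y axis, %) held by circRNAs from chromatin regulator genes, stacked by the role of the host gene; error bars are 95% exact binomial intervals of the sum. The 2 sperm samples reach 3.11% and 2.12%, and the oocyte and embryo libraries 0.579% to 1.67%.

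The number of circRNAs above 0 did not differ in the same way. A library held 10 to 20 of the 99 circRNAs in MII oocytes (20, 10 and 17), 12 to 20 in PN embryos (12, 14 and 20) and 19 and 20 in sperm. Over the libraries of a group (3, 3 and 2), 44 (44.4%) were above 0 in MII oocytes, 40 (40.4%) in PN embryos and 34 (34.3%) in sperm. Over all listed circRNAs the shares had the same order, 48.1%, 42.6% and 32.7%. With a minimum of 10 counts in a library both orders turned, as sperm libraries held more counts on each circRNA. Over all listed circRNAs it was then 863 in MII oocytes, 705 in PN embryos and 893 in sperm. Among the 99 it was 21, 16 and 31. The median count of those above 0 was 128 and 93 in sperm and 1 to 18.5 elsewhere, and over all listed circRNAs 156.5 and 133 against 4 to 20, so this holds for the whole table and not for chromatin regulators in particular.

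Most of these circRNAs were seen once. Of the 99, 77 (77.8%) were above 0 in 1 of the 8 distinct libraries, 14 in 2 and 8 in 3 or 4, and the share seen in a single library was 71.4% over all 3071 circRNAs. No chromatin regulator circRNA was above 0 in all 3 oocyte libraries or in all 3 embryo libraries, where 74 of the 3071 circRNAs were in each case. In MII oocytes 3 of the 44 present (6.82%) were above 0 in at least 2 libraries, against 21.0% of all circRNAs present there. In PN embryos this was 6 of 40 (15.0%) against 19.8%, and in sperm 5 of 34 (14.7%) against 12.5%. The same was seen at higher counts. Of the circRNAs with 50 or more counts in a library, all 6 in MII oocytes and 8 of 9 in PN embryos were at 0 in the other libraries of the group, against 58.5% and 62.5% of such circRNAs over the table. In sperm it was 18 of 22 (81.8%), against 83.2% over the table.

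The groups shared few of them. MII oocytes alone held 31 circRNAs (31.3%, against 30.7% of all listed circRNAs), PN embryos alone 28 (28.3% against 23.8%) and sperm alone 24 (24.2% against 24.8%). Oocytes and embryos shared 6 that sperm lacked (6.06% against 12.8%), oocytes and sperm 4 that embryos lacked (4.04% against 1.89%), embryos and sperm 3 that oocytes lacked (3.03% against 3.35%), and 3 were above 0 in all groups (3.03% against 2.67%). A circRNA absent from a group is one that lay under its floor, not one shown to be missing.

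**Figure D2:**
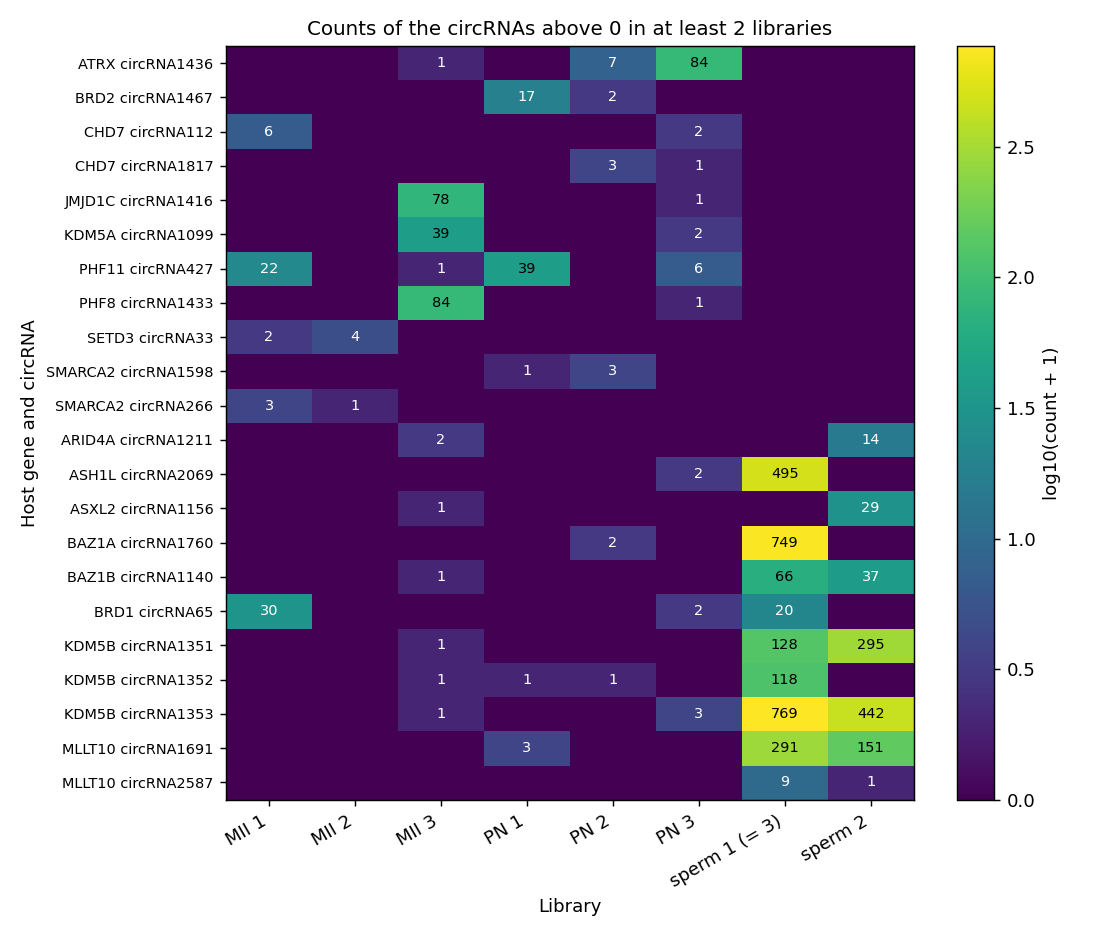
Counts (numbers in the cells, colour as log10 of count + 1) of the 22 chromatin regulator circRNAs above 0 in at least 2 of the 8 distinct libraries; empty cells are 0. All 5 circRNAs above 0 in both sperm samples (KDM5B circRNA1351 and circRNA1353, MLLT10 circRNA1691 and circRNA2587, BAZ1B circRNA1140) are at 3 counts or fewer in every oocyte and embryo library.

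Lysine methyltransferases, which add methyl groups to histone tails, gave 18 circRNAs from 7 genes. They held 0.274% ± 0.158 of the circRNA counts in MII oocytes, 0.258% ± 0.191 in PN embryos (SD, n = 3 each) and 0.502% ± 0.156 in sperm (SD, n = 2). KMT2C, a methyltransferase of enhancers (chromosome 18, 4993213 to 5279668 in Sscrofa11.1), had 5 circRNAs, and each was seen in a single library. Its summed counts were 0, 58 and 65 in MII oocytes, 79, 0 and 86 in PN embryos and 0 and 0 in sperm. Oocytes and embryos overlapped, and both sperm samples, with their higher summed counts, were at 0. The 3 circRNAs of NSD1, which methylates histone H3 in gene bodies and between genes, had summed counts of 8, 0 and 0 in MII oocytes, 7, 9 and 0 in PN embryos and 0 in sperm, again with a different circRNA in each library.

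Other methyltransferases had their highest counts in 1 sperm sample. NSD2, a relative of NSD1, had 1 circRNA (circRNA2881) with 657 counts in sperm 2 and 0 in every other library. SETD2, which marks the bodies of transcribed genes, gave circRNA2525 with 446 counts in sperm 1, circRNA367 with 20 in MII oocyte 1 and circRNA1923 with 1 in PN embryo 2. ASH1L, another methyltransferase of active genes (chromosome 4, 94297532 to 94484994), gave circRNA2069 with 495 counts in sperm 1 and 2 in PN embryo 3. For these 3 genes the circRNA was at 0 in the other sperm sample, so the mean of sperm describes neither sample. The remaining ASH1L circRNAs had 12 counts in sperm 1 (circRNA2360) and 32 and 3 in MII oocyte 3 (circRNA1128 and circRNA1127). SETD3, which methylates actin rather than histones, gave circRNA33 with 2, 4 and 0 counts in MII oocytes and 0 elsewhere, the only methyltransferase circRNA in more than 1 library of a group. KMT2E had 1 count in PN embryo 3.

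Lysine demethylases, which remove histone methyl groups, gave 19 circRNAs from 8 genes by symbol, and they held 0.808% ± 0.289 of the circRNA counts in sperm (SD, n = 2), near the 0.790% of the remodellers. MII oocytes had a mean share of 0.242% ± 0.251 (SD, n = 3) for this role, and embryos one of 0.223% ± 0.234 (SD, n = 3). A pair of closely related enzymes of active promoters, KDM5A and KDM5B, stood at opposite ends. KDM5B (chromosome 10, 24739115 to 24831537) had 6 circRNAs with summed counts of 0, 0 and 3 in MII oocytes, 1, 1 and 3 in PN embryos and 1576 and 835 in sperm. KDM5A (chromosome 5, 67628791 to 67716143) had 4 circRNAs with summed counts of 11, 36 and 39 in MII oocytes, 0, 0 and 2 in PN embryos and 0 and 0 in sperm. KDM5B was thus far higher in both sperm samples than in any other library, and KDM5A was higher in each oocyte library than in any other library.

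The KDM5B counts rested on more than 1 circle. circRNA1353 had 769 and 442 counts in sperm, 0, 0 and 1 in MII oocytes and 0, 0 and 3 in PN embryos. circRNA1351 had 128 and 295 counts in sperm, 0, 0 and 1 in MII oocytes and 0 in PN embryos. Both were above every oocyte and embryo library, and circRNA1353, at 0.379% ± 0.163 of sperm circRNA counts (SD, n = 2), ranked 26 among all circRNAs there. circRNA1352 had 118 and 0 counts in sperm, 0, 0 and 1 in MII oocytes and 1, 1 and 0 in PN embryos, so that it recurred at the level of single counts. circRNA2577 and circRNA2578 were seen in sperm 1 alone (424 and 137 counts) and circRNA2941 in sperm 2 alone (98 counts). Over its circRNAs, the pooled share of KDM5B in sperm was 176 times that in MII oocytes, where it had 3 counts (95% exact interval 60.3 to 856), and 109.9 times that in PN embryos, where it had 5 (47.0 to 339). These intervals cover counting error only.

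The KDM5A circles differed from library to library. circRNA81 and circRNA82 were seen in MII oocyte 1 alone (7 and 4 counts), circRNA654 in MII oocyte 2 alone (36 counts), and circRNA1099 in MII oocyte 3 (39 counts) and PN embryo 3 (2 counts). The pooled share of the gene in MII oocytes was 44.7 times that in PN embryos, from 86 and 2 counts (95% exact interval 11.99 to 375), and its mean share was at least 65.8-fold higher in MII oocytes than in sperm, computed against the floor of 3 counts per library. KDM5A was the only chromatin regulator host with a circRNA in every oocyte library.

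JMJD1C, a large protein of the demethylase fold, was also high outside sperm. Its 3 circRNAs had summed counts of 0, 0 and 78 in MII oocytes, 0, 122 and 28 in PN embryos and 0 in sperm. circRNA1994, with 122 counts in PN embryo 2, had the highest mean share of the chromatin regulator circRNAs in PN embryos, 0.155% ± 0.269 (SD, n = 3), from that single library. circRNA1416 had 78 counts in MII oocyte 3 and 1 in PN embryo 3. JARID2, which carries the same name root as the demethylases but is known as a partner of Polycomb repressive complex, had 13 and 2 counts in PN embryo 3. Single circRNAs of KDM2A (21 counts), KDM4B (69) and KDM7A (88) were seen in sperm 2 alone, and that of KDM3A had 1 count in MII oocyte 1.

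Acetyltransferases and deacetylases gave 1 circRNA each. EP300, a coactivator that acetylates histones at enhancers, gave circRNA1790 with 67 counts in PN embryo 2 and 0 elsewhere. HDAC9, a deacetylase and the longest host gene of the set at 1028 kb, gave circRNA2872 with 360 counts in sperm 2 and 0 elsewhere. No circRNA was listed for the KAT acetyltransferases.

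ATP-dependent remodellers and their subunits, assigned by symbol alone, were the largest role, with 35 circRNAs from 14 genes. They held 0.378% ± 0.384 of the circRNA counts in MII oocytes, 0.690% ± 0.132 in PN embryos (SD, n = 3 each) and 0.790% ± 0.631 in sperm (SD, n = 2). In PN embryos they took 187 of 333, 144 of 348 and 174 of 338 chromatin regulator counts, more than any other role in each library. ATRX, which deposits histone H3.3 in heterochromatin (chromosome X, 61584028 to 61872341), had 8 circRNAs, the most of any host here. The gene summed to 23, 0 and 72 counts in the oocyte libraries, to 66, 8 and 84 in the embryo libraries and to 523 and 0 in sperm, so that the groups overlapped. A single ATRX circle, circRNA1436, recurred: the oocyte libraries had 0, 0 and 1 counts of it, the embryo libraries 0, 7 and 84, and sperm 0. Its highest value was in PN embryo 3, and PN embryo 1 was at 0 like the oocyte libraries 1 and 2. The others had 71 counts in MII oocyte 3 (circRNA1435), 65 in PN embryo 1 (circRNA1740), 523 in sperm 1 (circRNA2670), 22 in MII oocyte 1 (circRNA564) and 1 in a single library (circRNA565, circRNA1739 and circRNA2009).

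SMARCC1, a core subunit of the SWI/SNF (BAF) remodellers, had 6 circRNAs, each in a single library. Its summed counts were 28, 3 and 0 in MII oocytes, 0, 0 and 83 in PN embryos and 0 and 386 in sperm, where 312 belonged to circRNA2902. SMARCA2, an ATPase of the same complex (chromosome 1, 219624773 to 219815438), had 4 circRNAs with summed counts of 3, 1 and 0 in MII oocytes, 30, 3 and 1 in PN embryos and 0 in sperm. Of these, circRNA266 recurred in oocytes (3, 1 and 0) and circRNA1598 in embryos (1, 3 and 0). SMARCA2 was the only host with a circRNA in all 3 embryo libraries besides ATRX and KDM5B. Among the ARID subunits, ARID1B had 2 circRNAs with 67 and 41 counts in MII oocyte 1 alone, and ARID1A and ARID2 had 3 counts or fewer.

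BAZ1A, a subunit of ISWI remodellers (chromosome 7, 64969626 to 65069969), had 4 circRNAs and was at 0 in every oocyte library. circRNA1762 had 106 counts, circRNA1761 had 22 and circRNA1760 had 2 in PN embryo 2, and circRNA1475 had 2 in PN embryo 1. In sperm, circRNA1760 had 749 and 0 counts. The summed BAZ1A share was thus high in 1 embryo and 1 sperm library and through different circles. BAZ1B, its relative in the WICH complex, gave circRNA1140 with 66 and 37 counts in sperm and 1 in MII oocyte 3. INO80, the ATPase of another remodeller, had 1 circRNA in each sperm sample, with 43 and 140 counts, and none outside sperm. CHD8 gave circRNA2286 with 544 counts in sperm 1 alone. CHD7 had circRNA112 (6 counts in MII oocyte 1 and 2 in PN embryo 3) and circRNA1817 (0, 3 and 1 in PN embryos). BPTF gave circRNA1612 with 89 counts in PN embryo 1 alone, and BAZ2B and ARID4A had 22 counts or fewer in a library.

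Readers and adaptors, which bind marked histones or bridge complexes, gave 21 circRNAs from 14 genes. They held 0.312% ± 0.267 of the circRNA counts in MII oocytes, 0.125% ± 0.125 in PN embryos (SD, n = 3 each) and 0.408% ± 0.226 in sperm (SD, n = 2). MLLT10, a partner of the methyltransferase DOT1L, gave circRNA1691, which had 291 and 151 counts in the sperm samples, 3, 0 and 0 in the embryo libraries and 0 in MII oocytes, and circRNA2587, with 9 and 1 counts in sperm alone. Both sperm samples lay above every other library for circRNA1691, whose mean share was at least 10.9-fold higher in sperm than in MII oocytes at the floor of 3 counts per library. Against PN embryos its pooled share was 33.6 times as high, from 442 and 3 counts (95% exact interval 11.4 to 163, counting error only).

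Among the PHD finger genes, PHF11 circRNA427 had 22, 0 and 1 counts in the oocyte libraries, 39, 0 and 6 in the embryo libraries and 0 in sperm. It was the only reader circRNA above 0 in 4 libraries, and oocytes and embryos overlapped. PHF8, named for its reader domain but also a demethylase, gave circRNA1433 with 84 counts in MII oocyte 3 and 1 in PN embryo 3, the highest mean share among the chromatin regulator circRNAs of oocytes at 0.123% ± 0.213 (SD, n = 3). PHF14 had 44 counts in MII oocyte 1 (circRNA305) and 2 in MII oocyte 2, and PHF12 had 401 in sperm 2 alone.

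Among bromodomain genes, BRD1 (chromosome 5, 774307 to 808016), a scaffold of acetyltransferase complexes and the shortest host at 33.7 kb, had 3 circRNAs. circRNA65 was found in every group, with 30 counts in MII oocyte 1, 2 in PN embryo 3 and 20 in sperm 1. circRNA2735 had 371 counts in sperm 2 and circRNA2327 had 13 in sperm 1. BRD2 gave circRNA1467 with 17, 2 and 0 counts in PN embryos alone. The remaining readers and adaptors, from ASXL2, ASXL3, BRD7, MLLT1, MLLT3, PHF20L1 and PHF21A, had 1 to 52 counts in their highest library.

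DNA methylation enzymes were the only role at 0 in both sperm samples apart from the single acetyltransferase. DNMT1, which copies methylation onto new DNA strands, had 18 counts in MII oocyte 1 (circRNA178) and 3 in MII oocyte 2 (circRNA729). TET1, which oxidizes methylated cytosine, had 29 counts in MII oocyte 2 (circRNA990) and 2 in PN embryo 2 (circRNA1997). Their mean share of the circRNA counts was 0.0692% ± 0.0668 in MII oocytes (SD, n = 3) against 0.00254% ± 0.00441 in embryos (SD, n = 3). None of the 4 circRNAs was above 0 in more than 1 library, and oocytes and embryos overlapped.

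A simple presence screen, looser than a demand for high expression in embryos and sperm, took circRNAs at 0 in MII oocytes and above 0 in PN embryos and sperm. Of the 103 it took, 3 were chromatin regulator circRNAs: MLLT10 circRNA1691, BAZ1A circRNA1760 and ASH1L circRNA2069. Each was above 0 in a single embryo library, with 3, 2 and 2 counts, and in sperm it had 151 to 749 counts where present. With oocytes and embryos exchanged, 4 of 58 were found: BAZ1B circRNA1140, ASXL2 circRNA1156 (0, 0 and 1 in MII oocytes, 0 and 29 in sperm), ARID4A circRNA1211 (0, 0 and 2 in MII oocytes, 0 and 14 in sperm) and KDM5B circRNA1351. The oocyte counts were 1 or 2, all in MII oocyte 3. In both directions the count outside sperm lay at or under the floor of 3 counts, so the depth cannot separate the 2 patterns. Of the 10 chromatin regulator circRNAs seen in sperm and in an oocyte or embryo library, 9 had at most 3 counts in any library outside sperm, all but BRD1 circRNA65, against 128 of 243 (52.7%) over the table.

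Counts were compared between groups with edgeR's quasi-likelihood test over the whole circRNA table, and to pass, a circRNA needed a change of 1 or more in either direction on the log2 scale together with a p under 0.05 after Benjamini-Hochberg adjustment. In PN embryos against MII oocytes 3 chromatin regulator circRNAs were testable, above 0 in at least 3 of the 6 libraries, and 0 passed, where percent passing over all 270 tested was 0. At an unadjusted p under 0.05 it was 0 of the 3, against 5.56% over the table, and DESeq2 also passed 0, against 0.741% over the table. For ATRX circRNA1436 the log2 fold change was 5.98 ± 3.73 (standard error), with an adjusted p of 0.776 from edgeR. It ranged from 2.83 to 7.92 with a library left out, and without PN embryo 3 the difference in mean share fell from 0.122 to 0.0119 percentage points. For PHF11 circRNA427 it was 1.01 ± 3.05 (standard error), with an adjusted p of 0.998 from edgeR, and it turned to -1.34 without PN embryo 1. Two-sided exact permutation tests over the libraries gave p = 0.4 for circRNA1436, 0.7 for circRNA427 and 1 for KDM5B circRNA1352, and 3 against 3 libraries cannot give less than 0.1.

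In sperm against MII oocytes 12 chromatin regulator circRNAs were testable and 0 passed with edgeR, where 3.91% of all 486 tested did. At an unadjusted p under 0.05 it was 2 of the 12, against 34.8% over the table, and DESeq2 passed 3 of them (25%), against 54.5% over the table. None of the 12 was above 0 in 2 libraries of each group. The filter was met by both sperm samples alone for 5 (circRNA1140, circRNA1351, circRNA1353, circRNA1691 and circRNA2587), by the oocytes alone for 3 and by 1 library of each group for 4, so the values that follow are a description and their p-values no support. On the log2 scale KDM5B circRNA1353 differed by 7.89 ± 2.51 (standard error), with an adjusted p of 0.105 from edgeR, which ranged from 0.00365 to 0.341 over the alternatives, as the difference did from 5.54 to 11.5. KDM5B circRNA1351 differed by 6.33 ± 2.99 (adjusted p of 0.105 from edgeR, 0.0152 to 0.397 over the alternatives, with differences of 3.99 to 9.91) and BAZ1B circRNA1140 by 4.34 ± 2.73 (adjusted p of 0.181 from edgeR, 0.0316 to 0.541, with differences of 2.01 to 7.91). The groups did not overlap for 5 of the 12, all higher in sperm, against 35.0% over the table. For 2 of the 5 (circRNA1691 and circRNA2587) the filter had fixed this.

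In sperm against PN embryos 14 chromatin regulator circRNAs were testable and 0 passed with edgeR, where 1.55% of all 453 tested did. At an unadjusted p under 0.05 it was 2 of the 14, against 25.8% over the table, and DESeq2 passed 5 (35.7%), of which 1 was higher in sperm, against 55.8% over the table. Of the 14, the same 5 met the filter through both sperm samples alone, 6 through PN embryos alone and 3 through 1 library of each group. All 5 that DESeq2 passed are among the first 11, and no p-value here is support. KDM5B circRNA1353 differed by 6.48 ± 2.46 on the log2 scale (standard error), with an adjusted p of 0.128 from edgeR. The groups did not overlap for 5 of the 14, all higher in sperm, against 36.6% over the table. For 3 of the 5 (circRNA1140, circRNA1351 and circRNA2587) the filter had fixed this. Both comparisons with sperm use the same 2 sperm samples, so they are not independent of each other.

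Because the circles of a gene changed from library to library, the counts were also summed per host gene and tested over all host genes, a choice made after the data were seen. In PN embryos against MII oocytes 10 chromatin regulator hosts were testable and 0 passed with edgeR, as over all 335 (0 percent), with 0 by DESeq2 as well and 0 of the 10 at an unadjusted p under 0.05, against 6.87% over the table. KDM5A was the 1 host of the 10 whose groups did not overlap, against 12.5% over the table, and its log2 fold change was -5.24 ± 3.49 (standard error), with an adjusted p of 0.811 from edgeR. KMT2C differed by 0.40 ± 2.20 on the log2 scale and ATRX by 0.68 ± 2.37, both with an adjusted p of 0.998 from edgeR.

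In sperm against MII oocytes 18 hosts were testable and 0 passed with edgeR, where 2.95% of all 577 did, and 6 were at an unadjusted p under 0.05 against 33.1%. Of these, KDM5B and MLLT10 met the filter through both sperm samples alone and KDM5A, KMT2C, SMARCA2 and SETD3 through the oocytes alone, so their p-values are no support. KDM5B differed by 7.39 ± 2.28 on the log2 scale (standard error), with an adjusted p of 0.124 from edgeR, which ranged from 0.00034 to 0.335 over the alternatives. KDM5A, KMT2C, SMARCA2 and SETD3 were at 0 in sperm. The mean share was at least 94.5-fold higher for KMT2C and 2.97-fold higher for SMARCA2 in MII oocytes than in sperm, at the floor of 3 counts per library. DESeq2 passed 5 of the 18 (27.8%), against 47.8% over the table, and these 5 too met the filter through 1 group alone. In sperm against PN embryos 18 hosts were testable and 0 passed with edgeR, where 1.47% of all 544 did, and 7 were at an unadjusted p under 0.05 against 32.7%. All but KDM5B of these 7 met the filter through 1 group alone, while KDM5B was above 0 in every library of both. KDM5B differed by 6.76 ± 1.88 on the log2 scale (standard error), with an adjusted p of 0.134 from edgeR, and DESeq2 passed 4 (22.2%), against 30.9% over the table. The 4, JMJD1C, KMT2C, PHF11 and SMARCA2, were lower in sperm and met the filter through PN embryos alone, so their p-values are no support. The groups did not overlap for 5 of 18 hosts in the first comparison, against 38.5% over the table, and for 6 of 18 in the second, against 37.5%. The filter had fixed this for INO80 and MLLT10 in the first and for BAZ1B and INO80 in the second, where the oocytes or embryos compared were at 0. Fewer cells that carry a circRNA and fewer molecules per cell cannot be told apart in such pools.

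**Figure D3:**
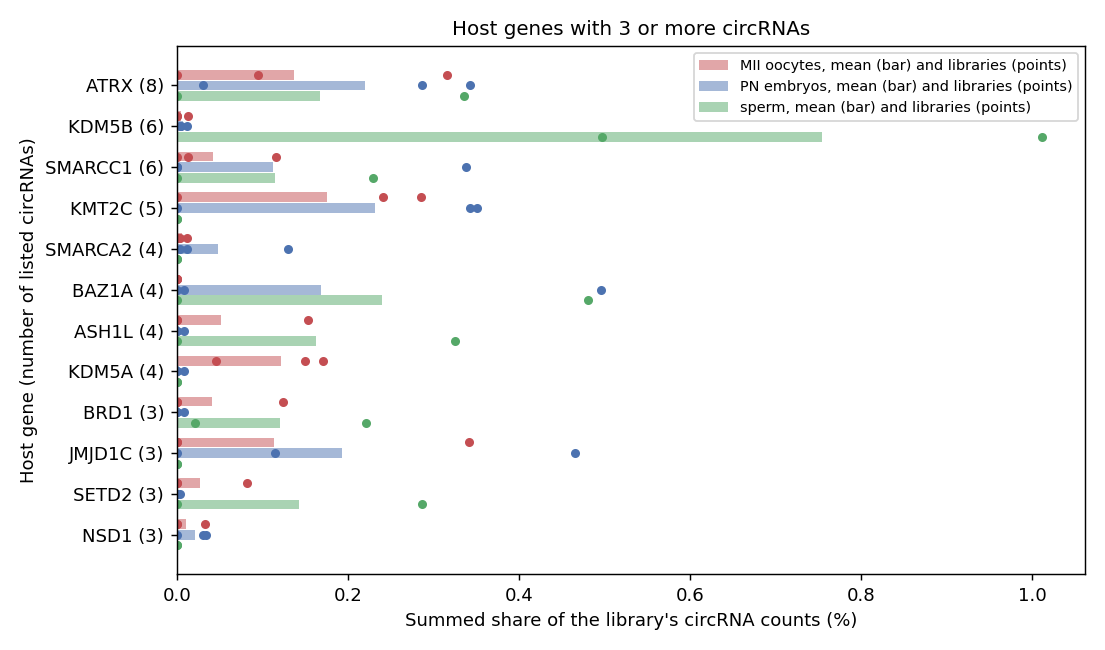
Summed share of the circRNA counts (x axis, %) for the 12 chromatin regulator genes with 3 or more circRNAs, by group; points are libraries and bars their means (n = 3, 3 and 2). KDM5B reaches 0.755% in sperm on average, while KMT2C, SMARCA2, KDM5A, JMJD1C and NSD1 are at 0 in both sperm samples.

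Of the chromatin regulator hosts, 24 had a single circRNA. They had 2.11 circRNAs per gene, against 1.77 for the other 1680 hosts, and 23 of 47 (48.9%) had at least 2 and 12 (25.5%) at least 3, against 36.0% and 16.2%. No test of these differences was made. A circRNA of the gene was seen in at least 2 groups for 22 hosts (46.8%) and in all 3 for 6 (12.8%), against 39.7% and 9.94%. These 6 were ASH1L, ATRX, BRD1, KDM5B, SETD2 and SMARCC1. Gene lengths from RefSeq (Sscrofa11.1) had a median of 131 kb for the 47 hosts, from 33.7 to 1028 kb, against 102 kb for the other hosts with a length and 16.6 kb for protein-coding genes without a listed circRNA. Of 157 RefSeq genes that the symbol rule matches, the 110 without a circRNA had a median of 35.6 kb, and 29 of them were under 20 kb, as was none of the 47. Within the set, the 24 hosts with 1 circRNA had a median length of 82.9 kb, the 11 with 2 one of 182 kb and the 12 with 3 or more one of 164 kb. Single genes departed from this order, as HDAC9 at 1028 kb had 1 circRNA and KDM5B at 92.4 kb had 6. Of the 27 families, 5 had no circRNA, namely KAT, EZH, SUZ12, EHMT and EP400, and the KDM family had the most hosts together with PHF, 6 each.

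**Figure D4:**
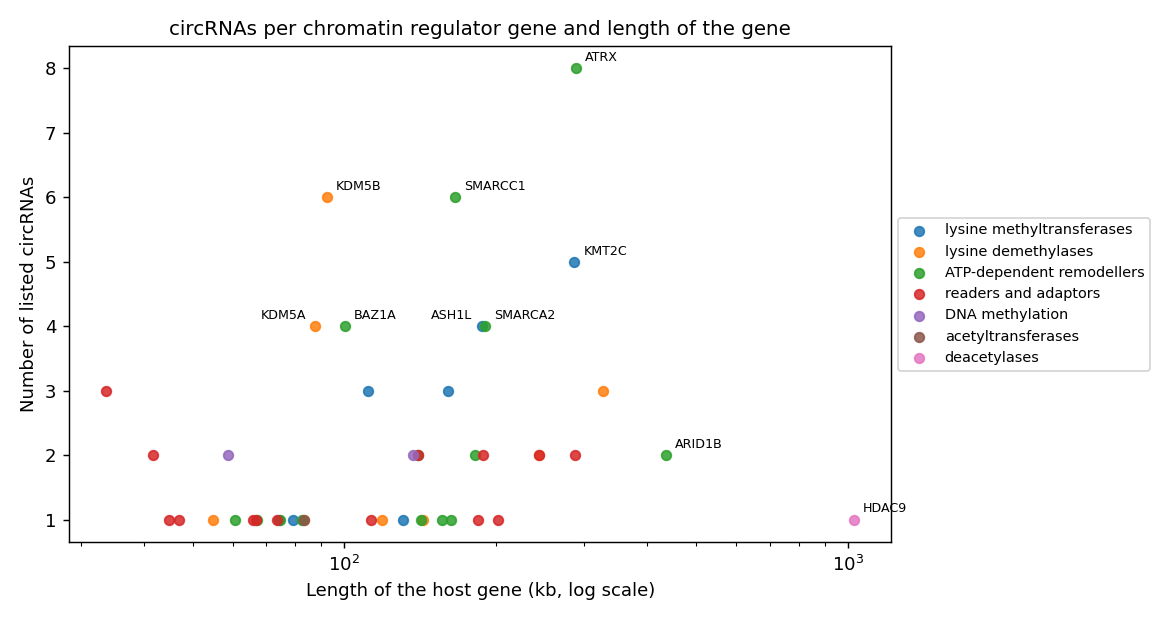
Number of listed circRNAs (y axis) against the length of the host gene (x axis, kb, log scale) for the 47 chromatin regulator genes, coloured by role. ATRX has 8 circRNAs, KDM5B and SMARCC1 6 each, and HDAC9, the longest at 1028 kb, 1.

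A second readout came from the deposited lncRNA table, which gives coverage per transcript in all 3 libraries of each group and labels transcripts with a gene symbol. It held 236 transcripts with the symbol of 37 of the 47 host genes, of 60759 in all, each of them assembled from the reads. They were listed apart from the circRNAs, and how they lie relative to the exons of the gene was not analysed here. Whether reads of the circles add to the coverage of these transcripts was not tested. HDAC9 had 36 of them, SMARCA2 23, BAZ2B 19, PHF11 15 and ARID2 14, and no transcript was labelled ATRX or KDM5A. Of the 236, 130 were above 0 in MII oocytes (55.1%, against 71.1% of all transcripts), 141 in PN embryos (59.7% against 66.2%) and 96 in sperm (40.7% against 25.4%). Transcripts above 0 in sperm alone were 51 (21.6% against 11.4%). Summed over the 236, coverage was 0.133% to 0.177% of the table's total in MII oocytes, 0.164% to 0.187% in PN embryos and 0.529% to 0.866% in sperm. In sperm, 4 were above 0 in all 3 libraries (1.69% against 1.39%). KMT2C, whose circRNAs were at 0 in sperm, had 3 such transcripts with 647, 697 and 463 in a single sperm library each and 2 or less elsewhere.

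In PN embryos against MII oocytes 54 of these transcripts from 18 genes were tested with limma on log2(coverage + 1), and 0 passed, where 0.0606% of all 19810 did (0.0303% higher and 0.0303% lower). At an unadjusted p under 0.05 it was 4 of 54, against 7.43% over the table, and the groups did not overlap for 5 of 54, against 13.2%, of which 2 (MSTRG.13157.1 of MLLT10 and MSTRG.9695.1 of SMARCA2) met the filter through PN embryos alone, which fixed this. For ASH1L the transcript MSTRG.50532.1 had coverage of 5.76, 8.37 and 1.16 in MII oocytes, 68.7, 78.1 and 67.0 in PN embryos and 0 in sperm. All embryo values lay above all oocyte values, with a log2 difference of 3.81 (95% interval 1.51 to 6.11) and an adjusted p of 0.468 from limma. For ARID2, a subunit of the PBAF remodeller, MSTRG.54566.6 had 203, 280 and 230 in MII oocytes, 90.8, 76.8 and 160 in PN embryos and 0, 0.26 and 0 in sperm. Its log2 difference was -1.18 (95% interval -2.03 to -0.32, adjusted p = 0.634 from limma). For PHF21A, MSTRG.39221.1 had 138, 44.1 and 33.1 in MII oocytes and 231, 319 and 91.3 in PN embryos, which overlapped, and 0 in sperm.

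In sperm against MII oocytes 25 transcripts from 16 genes were tested and 13 passed with limma, 2 higher and 11 lower in sperm, where 86.4% of all 11162 passed, 3.62% higher and 82.8% lower. At an unadjusted p under 0.05 it was 14 of the 25, against 87% over the table. In sperm against PN embryos 30 transcripts from 15 genes were tested and 18 passed, 3 higher and 15 lower, where 83% of all 10022 passed, 3.91% higher and 79.1% lower, and 19 were at an unadjusted p under 0.05, against 83.8% over the table. Sperm libraries had coverage above 0 in far fewer transcripts of the table, 10.3% to 10.98% against 37.6% to 45.5% in oocytes and embryos, and the median log2 difference over all tested was -4.31 and -4.32. Most that passed had met the filter through 1 group alone, here with no library of the other group at a coverage of 1 or more. These were 10 of the 11 lower against MII oocytes and 14 of the 15 lower against PN embryos, and 1 of those higher in each, so that they had to differ. The other lower transcript in both, SMARCA2 MSTRG.9706.1, had 0, 2.94 and 0 in sperm. It too reached the minimum of 3 libraries only outside sperm. Under quantile normalization, which removes this shift, 4 passed against MII oocytes (3 higher and 1 lower), against 11.7% over the table, and 3 against PN embryos (all higher), against 12.2%. The count of lower transcripts thus turns on the scaling.

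The transcripts higher in sperm came from BRD1, BAZ1A and CHD8. BRD1 MSTRG.52131.1 had coverage of 636, 294 and 128 in sperm, 0, 0 and 0.90 in MII oocytes and 0 in PN embryos, so that every sperm library lay far above all others. BAZ1A MSTRG.63749.1 had 493, 85.7 and 695 in sperm, 42.2, 29.5 and 0 in MII oocytes and 23.98, 0 and 1.97 in PN embryos. CHD8 MSTRG.64209.1 had 333, 275 and 377 in sperm, 263, 235 and 65.9 in MII oocytes and 48.9, 71.4 and 87.8 in PN embryos. As log2 differences from limma, BRD1 and BAZ1A rose against both groups, by 7.87 (adjusted p = 0.000112) and 4.82 (adjusted p = 0.0364) against MII oocytes and by 8.18 (adjusted p = 8.3e-05) and 6.21 (adjusted p = 0.00892) against PN embryos. CHD8 rose by 2.25 against PN embryos (adjusted p = 0.00233 from limma), and its difference from MII oocytes, 1.02, did not pass (adjusted p = 0.182). The BRD1 transcript met the filter through the 3 sperm libraries alone, so its p-values are no support beyond the values themselves. That of BAZ1A reached the minimum of 3 libraries within sperm alone, with 2 such libraries in oocytes and 2 in embryos. Its p-values are no support either. The BAZ1A difference from MII oocytes did not pass without any 1 oocyte library, without sperm 1, without sperm 3, with a pseudocount of 0.1 or without a filter (adjusted p = 0.0618 to 0.0849), and that from PN embryos did not pass without PN embryo 3 (adjusted p = 0.0555). CHD8 passed against PN embryos with any 1 library left out. The circRNAs of these 3 genes, by contrast, had their high sperm counts in a single sperm sample each, with 371, 749 and 544 counts.

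**Figure D5:**
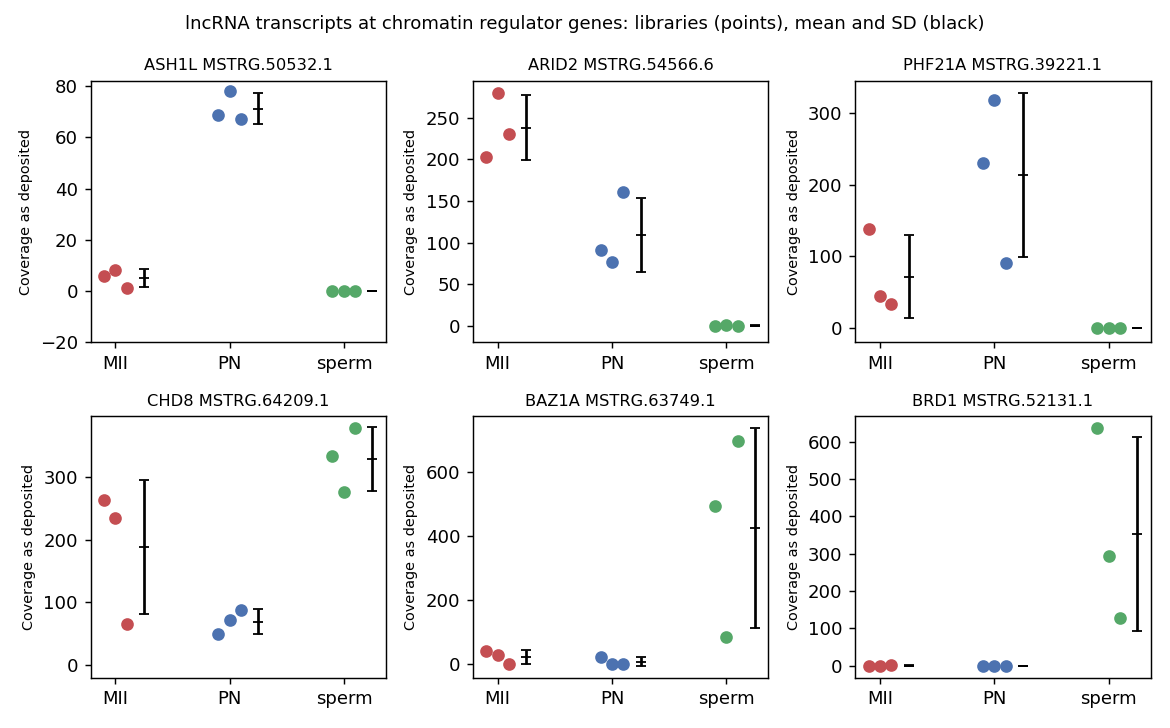
Coverage, as deposited, of 6 lncRNA transcripts at chromatin regulator genes in each library (points; black, mean ± SD, n = 3), on linear axes that differ between panels. The ASH1L, ARID2 and PHF21A transcripts are at 0 to 0.26 in sperm, and the BRD1 transcript is at 0.90 or less outside sperm.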

How the data were processed

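The authors deposited whole-number counts per circRNA, without normalization, and coverage (a signal of mean read depth) per lncRNA transcript for the same 9 strand-specific, PCR-amplified libraries of rRNA-depleted RNA. The submitters' processing notes name cutadapt 1.9, TopHat2 2.0.4, HISAT2 2.0.4, StringTie 1.3.4d, edgeR and the build Sscrofa11.1, and the program that found the circRNAs is not given in the sources used here. The mRNA table was not used, since it carries no symbols of these host genes. Groups came from the sample labels. All value columns of the circRNA and lncRNA tables were used (0 left out), and the identical circRNA columns of sperm 1 and 3 were counted as 1 sample.

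circRNAs were selected by host symbol and grouped into roles by symbol alone. The members, lists and comparisons were chosen with earlier results of these data known. Counts were tested with edgeR 4.0.16 (glmQLFit, glmQLFTest) in R 4.3.3 on the whole table, with the total circRNA count as library size and circRNAs above 0 in at least as many libraries as the smaller group has (3 for PN embryos against MII oocytes, 2 with sperm). p-values were Benjamini-Hochberg adjusted over all features tested. Standard errors were taken as the log2 fold change divided by the root of F. DESeq2 1.42.0 was an alternative, with TMM, valid reads as library size, other filters, 1 fit over all groups, the replicate block and each library left out. Coverage was tested with limma 3.58.1 on log2(coverage + 1) for transcripts at 1 or more in at least 3 libraries, a scale that understates changes of low transcripts. The depth behind a coverage value is unknown. Scripts were tested on simulated data. Intervals of shares and of pooled ratios are exact at 95% and cover counting error only, since PCR reads carry no molecular identifiers. Those of log2 coverage differences are 95% intervals from limma, which rest on the spread between libraries.

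Named circRNAs were those in at least 2 groups, those fitting the sperm screen or its exchange, the 8 highest by mean share in a group, and those of hosts with at least 3 circles. Others that are named were chosen after their values were seen, as were the lncRNA transcripts. Host coordinates and lengths are from RefSeq (Sscrofa11.1), in which all 47 hosts were found. The junctions of the circles are not analysed here.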

Additional observations from a re-analysis of the deposited data

How the results depend on the processing

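With 2 sperm samples and most circRNAs in 1 library, depth and recurrence limit every comparison with sperm. No chromatin regulator circRNA passed in PN embryos against MII oocytes under any setting, also with the replicate number as a block (0). After each group's mean was subtracted, same-numbered libraries correlated at -0.0451, 0.125 and -0.0184. Libraries with different numbers correlated at -0.114 to 0.134. With counts this sparse, these values cannot decide whether the numbers pair the libraries. For circRNAs and host genes no paired analysis with sperm was possible, because the merged sperm sample carries 2 numbers. For the lncRNA transcripts, where sperm has 3 separate libraries, no replicate block was fitted. Against MII oocytes, sperm gave 3 circRNAs with valid reads as library size, 3 with DESeq2, 2 when above 0 in at least 3 libraries and 4 when the identical columns counted as 2 samples. Over the whole table these settings passed 18.7%, 54.5%, 56.9% and 58.5%, against 3.91% as reported. Against PN embryos these were 5 with DESeq2 and 3 with the identical columns as 2 samples (253 of 453 and 134 of 255 over the table). Each library left out gave 0. For host genes, against MII oocytes, the numbers were 1 with TMM, 5 with DESeq2, 1 in at least 3 libraries, 5 with the identical columns as 2 samples and 0 to 1 with a library left out (1, KDM5B, without sperm 2, when the lone sperm sample is assumed to vary as the oocytes do), where the first 4 settings gave 46 of 577, 276 of 577, 44 of 231 and 177 of 375 over the table and that without sperm 2 gave 23 of 430. Against PN embryos they were 1 with valid reads, 4 with DESeq2, 1 in at least 3 libraries and 3 with the identical columns (39 of 544, 168 of 544, 42 of 222 and 147 of 363 over the table). The lncRNA counts against MII oocytes were 7 without a filter (3.54%, against 13.1% over the table), 4 under quantile normalization and 1 to 16 with a library left out, where the table passed 20.8% to 24.6% without an oocyte library and 83.2% to 83.6% without a sperm library. Against PN embryos they were 12 without a filter (5.83%, against 11.9% over the table) and 3 under quantile normalization. With a library left out they were 2 to 17. There the table passed 20.1% to 22.2% without an embryo library and 78.6% to 79.9% without a sperm library. Without an oocyte or embryo library fewer transcripts met the filter (10 to 13 of the chromatin regulator transcripts in place of 25 and 30). PHF11 circRNA427 reversed without PN embryo 1, to a log2 fold change of -1.34 (range -1.34 to 4.59) and a share difference of -0.0195 percentage points (range -0.0195 to 0.0651). At 10 or more counts, 21 circRNAs were present in MII oocytes, 16 in PN embryos and 31 in sperm. Those above 0 numbered 27 to 36, 23 to 32 and 19 to 20 with a library left out, in place of 44, 40 and 34. The sperm screen gave 0 at 10 or more counts, 0 in at least 2 libraries of each group, and 1 to 5 with a library left out (1 without sperm 1, 5 without MII oocyte 3). For all other reversals, losses and gains the cause was not tested. The log2 fold changes of KDM5B in sperm kept their direction in all 13 alternatives. They ran from 6.77 to 12.5 against MII oocytes and from 5.83 to 9.40 against PN embryos. Adjusted p against PN embryos ran from 0.0205 to 0.404 with edgeR and DESeq2. Sperm had 1576 and 835 counts and every other library 3 or fewer, so the counts themselves fixed the direction. Against MII oocytes KDM5B met the filter through sperm alone, so its p-values there are no support.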
